A study of Mus musculus with 9 samples.

Results

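Of the 23471 genes in the RNA tables of this study, 5 act on phospholipids or on platelet-activating factor (PAF) and are described here: Pla2g4a, Ptafr, Pla2g7, Pla2g3 and Lipg. They were looked up by gene symbol in the RNA tables and in the H3K4me3 peak lists, and all 5 were present and passed the filter on low counts that kept 14324 genes. They were picked with their RNA levels in view, so their RNA values are given as a description with no test. All cells came from bone marrow that was pooled from Balb/c mice at homeostasis, with no treatment. The groups were granulocyte-macrophage progenitors (GMP; Lin-, CD34+, c-kit high, CD16/32+), eosinophil progenitors (EoP; Lin-, CD34+, c-kit low, CD125+) and mature eosinophils (Eos; Siglec-F+, CCR3+). Each group had 2 RNA libraries from separate sorts and 1 library of H3K4me3, a histone mark of active promoters. No statement says that the sorts used different animals, so p-values measure only the spread between these samples.

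PAF is an ether phospholipid that attracts and activates eosinophils and other leukocytes. Cytosolic phospholipase A2, the product of Pla2g4a, cuts membrane phospholipids at the middle carbon of glycerol, which frees arachidonate for prostaglandins and leukotrienes and leaves a lysophospholipid from which PAF can be made. PAF acts through a G protein-coupled receptor encoded by Ptafr and is inactivated by acetylhydrolases, of which Pla2g7 encodes the secreted, lipoprotein-associated form. Pla2g3 encodes a secreted, calcium-dependent phospholipase A2 of group III. Lipg encodes endothelial lipase, a secreted phospholipase of the triglyceride lipase family that acts on high-density lipoprotein.

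In these cells Pla2g4a was higher at each step from GMP through EoP to Eos. Ptafr and Pla2g7 were near the same low level in GMP and EoP and high in Eos, 26.7-fold and 344-fold above EoP. Pla2g3 was near the detection limit in GMP, low in EoP and 27.8-fold higher in Eos than in EoP. Lipg ran the other way at the last step: it was 160-fold higher in EoP than in GMP, where it had 4 and 7 counts, and 37.7-fold lower in Eos than in EoP.

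Pla2g4a, Ptafr and Pla2g7 differed in which lists held a promoter H3K4me3 peak. H3K4me3 is often strong at promoters rich in CpG dinucleotides. The promoter sequences are therefore shown for these 3 genes, the ones with an entry in the RefSeq table. Each is the 250 bases before the annotated start, 5′ to 3′ on the strand of the gene, from RefSeq on GRCm38.p6, with each CpG in capitals. The start of Pla2g4a in that table lay 6 bases from the start in the files.
Pla2g4a: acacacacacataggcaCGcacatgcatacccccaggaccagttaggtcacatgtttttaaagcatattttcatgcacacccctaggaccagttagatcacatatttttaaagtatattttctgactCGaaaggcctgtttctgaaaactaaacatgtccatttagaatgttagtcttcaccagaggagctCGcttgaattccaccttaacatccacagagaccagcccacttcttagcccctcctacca
Ptafr: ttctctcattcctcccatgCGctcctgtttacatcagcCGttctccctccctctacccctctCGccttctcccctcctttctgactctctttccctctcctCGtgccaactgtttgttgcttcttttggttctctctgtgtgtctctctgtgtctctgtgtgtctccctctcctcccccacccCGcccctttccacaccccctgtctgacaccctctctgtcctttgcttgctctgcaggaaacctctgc
Pla2g7: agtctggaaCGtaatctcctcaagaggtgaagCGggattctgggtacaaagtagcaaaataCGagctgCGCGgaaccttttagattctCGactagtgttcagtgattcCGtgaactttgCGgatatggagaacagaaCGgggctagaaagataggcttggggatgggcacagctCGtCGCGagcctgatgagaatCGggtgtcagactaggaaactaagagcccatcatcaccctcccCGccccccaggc
Pla2g4a, on chromosome 1, had 3 CpG and Ptafr, on chromosome 4, had 5, against a median of 6 over 32851 promoters of the table. Pla2g7, on chromosome 17, had 14, and 72.7% of promoters had as few or fewer. Short motifs were searched on both strands of these windows. For GATA factors the form AGATAA was searched, then the form AGATAG, then the form TGATAA, and last the form TGATAG. The C/EBP form was TTGCNNAA. The ETS form was AGGAAG. The TATA form was TATAAA. No pair of these forms overlapped in the windows, which held a single match. That match was AGATAG in Pla2g7, 102 to 97 bases before the start. Any GATA form occurred in 26.5% of all promoters, the C/EBP form in 9.56%, the ETS form in 29.5% and the TATA form in 12.4%. A match is a description of letters and not a binding site.

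The RNA libraries held 5226653 to 12088134 estimated counts, and the GMP pair was the shallowest. Levels are given as CPM, a library's counts put on a common total and scaled by TMM factors. To check the labels, marker genes were summed. The summed level of 9 eosinophil markers was 1203 and 313 CPM in GMP, 233096 and 186396 CPM in EoP and 19418 and 23200 CPM in Eos. Of that sum, Prg2 alone had 176395 and 137064 CPM in EoP. Prg2, Prg3, Epx, Ear1 and Ear2 were lower in Eos than in EoP, and Ccr3, Il5ra, Siglec5 and Alox15 were higher. The 17 neutrophil markers together held 44103 and 39913 CPM in GMP, 2978 and 3175 CPM in EoP and 57077 and 53475 CPM in Eos. None of them was at 0 counts in any group. Among these, Retnlg alone had 20590 and 35159 CPM in Eos. The 10 mast cell and basophil markers summed to 1328 and 1325 CPM in GMP and 1621 and 4490 CPM in EoP. In Eos they summed to 275 and 136 CPM, of which Hdc alone had 156 and 92.5 CPM. Cma1, Tpsb2 and Tpsab1 were at 0 counts in Eos. In EoP Tpsb2 and Tpsab1 also had 0 counts, and Cma1 had 0 and 1. The 15 genes of activation and dissociation stress differed between libraries of the same group, with 634 and 3332 CPM in GMP, 5992 and 114 CPM in EoP and 1442 and 5171 CPM in Eos. In bulk samples such as these, fewer cells of a type and less RNA per cell cannot be told apart.

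Pla2g4a lies at chr1:149829622-149961284 on the minus strand of mm10. It had 36.1 and 37.1 CPM in the GMP libraries, 97.5 and 87.8 CPM in the EoP libraries and 208 and 303 CPM in the Eos libraries. No library of a stage overlapped with those of the next. The fitted log2 fold change, from the edgeR fit of all 6 libraries, was 1.34 (SE 0.24) for EoP over GMP, 1.46 (SE 0.24) for Eos over EoP and 2.80 (SE 0.25) for Eos over GMP. It was the only one of the 5 genes above 30 CPM in GMP. The step of EoP over GMP depended on scaling in size but not in sign: with library size alone it was 0.87. The same scaling moved the median gene by -0.47, and relative to the median gene the step was 1.41 under both scalings.

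Ptafr, the PAF receptor gene at chr4:132564067-132580866 on the plus strand, had 5.45 and 2.09 CPM in GMP, 5.31 and 3.86 CPM in EoP and 103 and 140 CPM in Eos. The GMP and EoP libraries overlapped, and both Eos libraries were far above them. The log2 fold change was 0.24 (SE 0.41) for EoP over GMP, 4.74 (SE 0.40) for Eos over EoP and 4.98 (SE 0.41) for Eos over GMP. The EoP over GMP value had no stable sign, at -0.22 with library size alone, -0.11 without GMP replicate 2 and 1.13 without GMP replicate 1. The Eos over GMP value was 5.86 without GMP replicate 1.

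Pla2g7, the secreted PAF acetylhydrolase gene at chr17:43568451-43612201 on the plus strand, had 1.45 and 0.596 CPM in GMP, 1.30 and 1.11 CPM in EoP and 262 and 571 CPM in Eos. In raw terms these were 12 and 4 counts in GMP, 11 and 13 counts in EoP and 2613 and 4883 counts in Eos. The GMP and EoP libraries overlapped at a handful of counts, and the Eos libraries differed from each other by more than those of Ptafr. The log2 fold change was 0.18 (SE 0.62) for EoP over GMP, 8.43 (SE 0.51) for Eos over EoP and 8.60 (SE 0.53) for Eos over GMP. The EoP over GMP value had no stable sign here either, at -0.28 with library size alone, -0.13 without GMP replicate 2 and 1.00 without GMP replicate 1. Ranked by log2 fold change for Eos over EoP, Pla2g7 was gene 18 of 14324. The sum of the neutrophil markers given above also was higher in Eos than in EoP. Of these markers, Ctsg overlapped, at 183 and 319 CPM in EoP and 1024 and 315 CPM in Eos. The 13 monocyte and macrophage markers summed to 1460 and 1401.5 CPM in EoP and 1740 and 2577 CPM in Eos. Of these sums, Emr1 alone had 271 and 235 CPM in EoP and 986 and 1975 CPM in Eos. Among the 13, Csf1r was also higher in Eos. Vcam1 was lower, at 317 and 100 CPM in Eos against 1055 and 1000 CPM in EoP. The 6 B cell markers summed to 19.2 and 28.3 CPM in EoP and 126 and 54.1 CPM in Eos. The part of these cell types in the Eos levels of Pla2g7, Ptafr, Pla2g3 and Pla2g4a was not tested. The markers that make up the neutrophil sum differed by stage. Mpo, of early granulocytes, had 29891 and 28330 CPM of that sum in GMP and 10533 and 3780 CPM in Eos. Retnlg had 0.726 and 2.83 CPM in GMP. With Eos replicate 2 left out, the change of Pla2g7 was 7.76 for Eos over EoP and 7.96 for Eos over GMP. With GMP replicate 1 left out, it was 9.42 for Eos over GMP.

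Pla2g3, the group III secreted phospholipase A2 gene at chr11:3488227-3494166 on the plus strand, had 0 and 0.745 CPM in GMP, 6.84 and 4.89 CPM in EoP and 127 and 197 CPM in Eos. The GMP values were 0 and 5 counts, and 3 counts in the library without a count would have been 0.363 CPM. The groups did not overlap at either step. The log2 fold change was 4.05 (SE 0.69) for EoP over GMP, 4.79 (SE 0.46) for Eos over EoP and 8.85 (SE 0.63) for Eos over GMP. The values against GMP rest on those 5 counts: without GMP replicate 1 they were 2.95 for EoP over GMP and 7.74 for Eos over GMP, and without GMP replicate 2 no count is left in GMP.

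Lipg, the endothelial lipase gene at chr18:74939322-74961263 on the minus strand, had 0.484 and 1.04 CPM in GMP, 172 and 70.0 CPM in EoP and 4.32 and 1.99 CPM in Eos. It was the only one of the 5 genes with its highest level in EoP, and the EoP libraries differed 2.45-fold from each other. The log2 fold change was 7.32 (SE 0.63) for EoP over GMP, -5.24 (SE 0.52) for Eos over EoP and 2.09 (SE 0.69) for Eos over GMP. The GMP level rests on 4 and 7 counts, and the Eos level on 43 and 17. EoP over GMP was 6.56 without EoP replicate 1 and 8.06 without GMP replicate 2. Leaving out EoP replicate 2 gave a value between 7.32 and 8.06. Eos over EoP was -4.47 without EoP replicate 1 and -5.93 without Eos replicate 1. Eos over GMP was 2.84 without GMP replicate 2 and 1.42 without Eos replicate 1. Ranked by log2 fold change, Lipg was gene 20 from the top for EoP over GMP and gene 36 from the bottom for Eos over EoP. The EoP library with the higher Lipg level was also the library with 5992 CPM of stress genes and the lower sum of mast cell and basophil markers, and the part of either in the Lipg level was not tested. The 15 endothelial and stromal markers summed to 20.0 and 29.3 CPM in EoP, below 52.6 and 48.0 CPM in GMP. Of these 15, Cldn5 and Col3a1 were at 0 counts in both EoP libraries, and Sele was the highest, at 6.84 and 14.9 CPM in EoP against 15.0 and 7.90 CPM in GMP. Plvap was higher in EoP, at 1.06 and 1.29 CPM, than in GMP, at 0.968 and 0.149 CPM. The part of endothelial or stromal cells in the Lipg level was not tested.

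**Figure D1:**
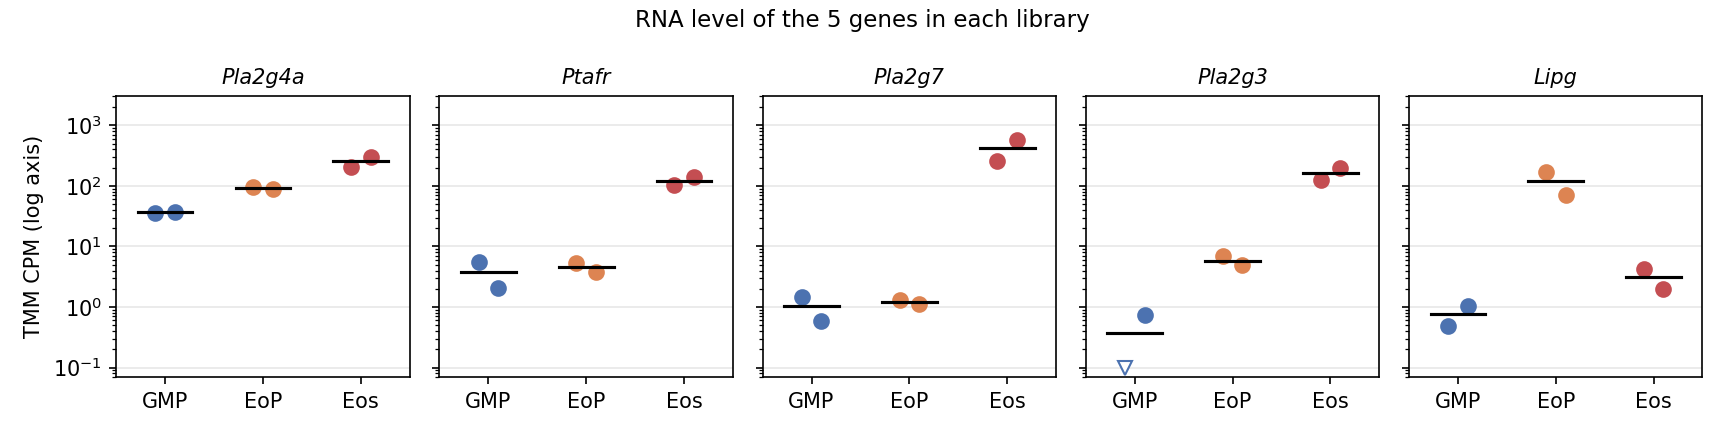
RNA level of the 5 genes in each library, as TMM-scaled CPM on a log axis. Points are libraries, lines are the mean of the 2 libraries, and the open triangle marks the GMP library with 0 counts of Pla2g3. Pla2g4a steps up across the stages, Ptafr and Pla2g7 are high in Eos only among these 3 groups, and Lipg peaks in EoP at 172 and 70.0 CPM.

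Counted by libraries that did not overlap, EoP stood above GMP for 3 of the 5 genes and below it for 0, and the same rule held for 31% and 39% of all tested genes. For Eos over EoP 4 were higher and 1 lower, against 35.4% and 35.5% of all tested genes. For Eos over GMP all 5 were higher, against 33.3%, and 0 were lower, against 49.7%. The genes were chosen on these levels, so nothing is read from these counts. The 3 comparisons share libraries with each other.

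**Figure D2:**
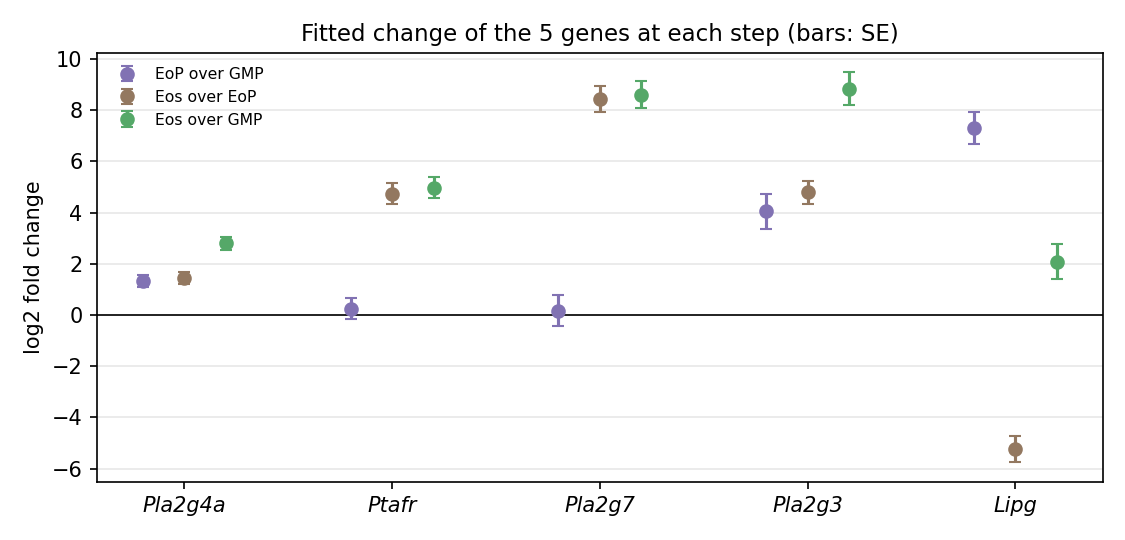
Fitted log2 fold change of the 5 genes for EoP over GMP, Eos over EoP and Eos over GMP, with bars of 1 standard error. The Eos over EoP change is 8.43 for Pla2g7 and -5.24 for Lipg, and the EoP over GMP changes of Ptafr and Pla2g7 lie within 1 standard error of 0.

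Levels were compared between genes per length, as the deposited RPKM. In GMP the order was Pla2g4a (4.38 and 4.35 RPKM), Ptafr (1.03 and 0.382), Pla2g7 (0.262 and 0.104), Lipg (0.0442 and 0.0918) and Pla2g3 (0 and 0.0947), and the last pair overlapped. In EoP it was Pla2g4a (13.7 and 13.5 RPKM), Lipg (18.2 and 8.09), Ptafr (1.17 and 0.927), Pla2g3 (1.05 and 0.815) and Pla2g7 (0.276 and 0.255), ordered by mean. There Pla2g4a and Lipg overlapped, and so did Ptafr and Pla2g3. In Eos it was Pla2g7 (44.5 and 79.6 RPKM), Pla2g4a (23.7 and 28.4), Ptafr (18.4 and 20.6), Pla2g3 (15.7 and 20.0) and Lipg (0.371 and 0.140), with Ptafr and Pla2g3 overlapping. Pla2g7 thus stood last of the 5 in EoP and first in Eos. Its Eos values were rank 384 of 15924 and rank 174 of 16489 genes with a count.

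The genes whose pattern was most like that of each gene were found by the root mean square difference of centred log2 CPM over the 6 libraries, among the 14324 tested genes. For Pla2g4a they were Mob3a, Inpp5b and Kif3b, at 0.10, 0.10 and 0.12. For Ptafr they were Rnase6, Lgals3 and Zbp1, at 0.26, 0.28 and 0.40. For Pla2g7 they were Mmp9, Sema7a and Tmem71, at 0.40, 0.57 and 0.65. Mmp9, a gelatinase gene on the list of neutrophil markers, had 1.09 and 1.19 CPM in GMP, 1.65 and 1.46 CPM in EoP and 410 and 529 CPM in Eos. For Pla2g3 they were Cyp4f18, Prkcq and P2ry10, at 0.54, 0.57 and 0.58, and P2ry10 encodes a receptor for lysophosphatidylserine. For Lipg they were Amigo2, Epx and P2rx3, at 0.92, 1.00 and 1.04, so its nearest genes were farther off than those of the other 4. Epx, for eosinophil peroxidase, is a granule gene made at the progenitor stage. Among the 5 genes themselves, the differences ran from 1.41 between Pla2g4a and Ptafr to 5.46 between Pla2g7 and Lipg. These distances describe 6 libraries in 3 groups and carry no test, and with Pearson correlation as the measure none of the 3 nearest genes was shared for any of the 5.

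Around these 5 genes, 114 genes of 8 lists of the same biochemistry were examined, of which 95 passed the filter. The lists were chosen with earlier results of these data known, so no excess over the shares of all genes is read from them. For Eos over EoP, 49 of the 95 were called higher and 9 lower by the edgeR quasi-likelihood test at a Benjamini-Hochberg adjusted p under 0.05, against 19.1% and 17.7% of all tested genes. For EoP over GMP, 24 were called higher and 10 lower, against 9.49% and 17.1%. For Eos over GMP, 46 were called higher and 13 lower, against 22.7% and 31.8%. The EoP over GMP counts moved most with single libraries. Leaving out GMP replicate 1 gave 10 higher and 1 lower. Leaving out GMP replicate 2 gave 12 higher and 2 lower, and leaving out EoP replicate 1 gave 15 higher and 2 lower. Leaving out EoP replicate 2 gave 2 lower, and for Eos over EoP it gave 31 higher. For Eos over EoP, leaving out EoP replicate 1 gave 5 lower. For Eos over GMP the lower genes numbered 4 with either GMP library left out, 8 with EoP replicate 2 left out and 5 with Eos replicate 2 left out.

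**Figure D3:**
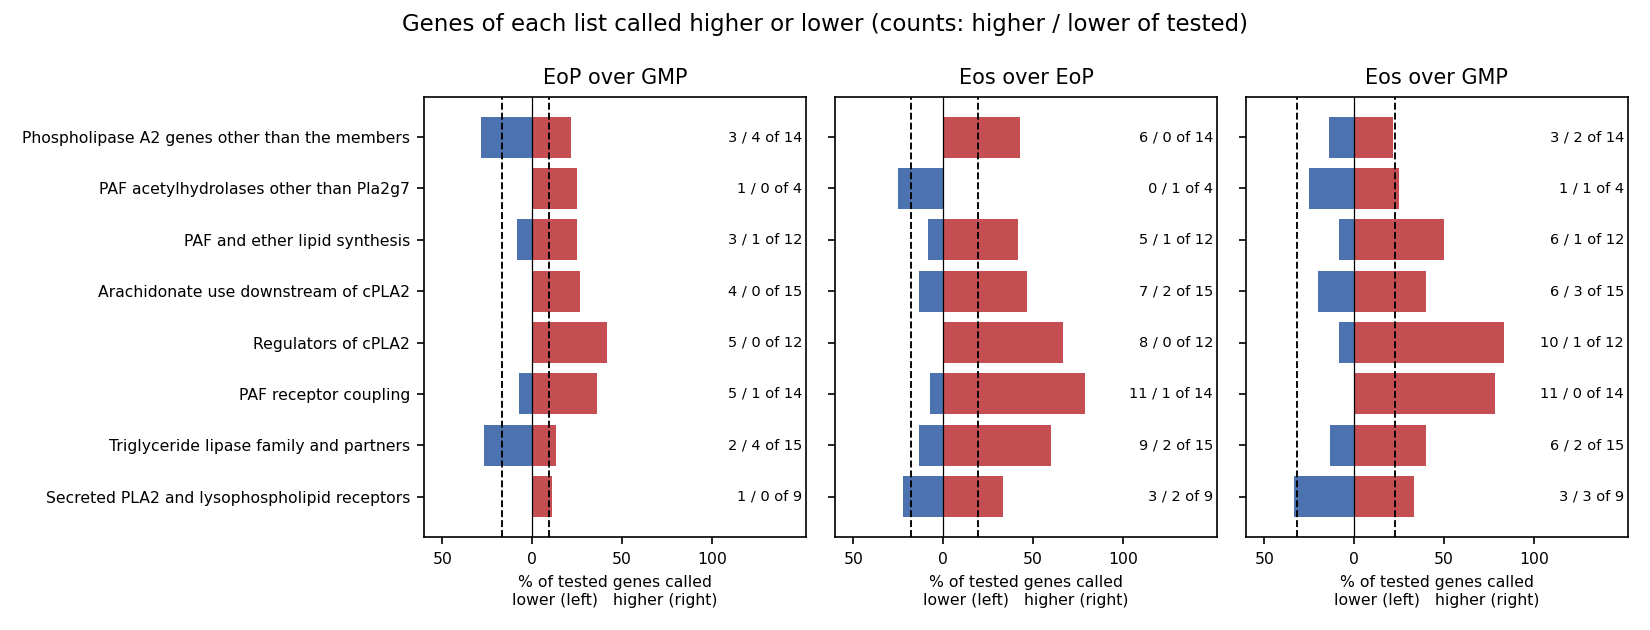
Share of the tested genes of each list called higher (right of 0) or lower (left of 0) in each comparison, with the counts printed as higher / lower of tested. Dashed lines mark the shares over all tested genes. For Eos over EoP the receptor coupling list has 11 of 14 genes higher and the list of regulators of cytosolic phospholipase A2 has 8 of 12.

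Of 10 other secreted phospholipase A2 genes on the list, 9 stayed at or below 2 CPM in all 6 libraries. The exception was Pla2g12a, of group XII, which ranged from 1.99 to 21.2 CPM over the 6 libraries and was not called in any comparison. Pla2g2a had 0 counts in all of them, where 3 counts would be 0.257 to 0.447 CPM. The median log2 fold change of the list for Eos over EoP was 0.84, against 0.02 over all tested genes. Of 14 tested genes of the list, 6 were higher and 0 lower, against 19.1% and 17.7% of all tested genes. These were Pnpla7, Pnpla6, Pnpla8, Pla2g15, Pla2g16 and Pla2g2d, the last at 1.51 and 0.351 CPM in Eos against 0 counts in both EoP libraries. With EoP replicate 1 or EoP replicate 2 left out, 1 gene was called higher. Pnpla7, a lysophospholipase gene, had 288 and 477 CPM in Eos against 72.5 and 60.3 CPM in EoP (log2 fold change 2.53, SE 0.28, edgeR adjusted p = 0.000186). That call held with each library left out in turn.

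Among the genes of PAF and ether lipid synthesis, 5 of 12 rose and 1 fell in Eos relative to EoP. The shares over all tested genes were 19.1% called higher and 17.7% lower. Lpcat2, which acetylates lyso-PAF to PAF, had 19.4 and 18.5 CPM in GMP, 143 and 146 CPM in EoP and 367 and 559 CPM in Eos. It rose at both steps, by a log2 fold change of 2.93 (SE 0.27, edgeR adjusted p = 0.000129) for EoP over GMP and 1.68 (SE 0.25, adjusted p = 0.000917) for Eos over EoP. Chpt1, for a cholinephosphotransferase of phosphatidylcholine synthesis, had 95.6 and 170 CPM in Eos against 27.6 and 28.7 CPM in EoP (2.24, SE 0.31, edgeR adjusted p = 0.000685). Cept1, for the related choline and ethanolamine phosphotransferase, and Far1, which makes fatty alcohols for ether lipids, rose by 1.60 and 1.26 in Eos over EoP (edgeR adjusted p = 0.000503 and 0.00198). The single fall was Far2, for another fatty acyl reductase (62.5 and 35.2 CPM in Eos against 80.9 and 99.9 CPM in EoP), and no fall was called when either GMP library, either EoP library or Eos replicate 2 was left out.

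Of the 4 other PAF acetylhydrolase genes, Pafah2, for an intracellular enzyme, moved opposite to Pla2g7. It had 15.7 and 6.31 CPM in Eos against 58.7 and 62.1 CPM in EoP, and fell by 2.45 on the log2 scale (SE 0.37, edgeR adjusted p = 0.00105), a call that held with each library left out. Its rise in EoP over GMP (24.4 and 21.3 CPM in GMP) was 1.40 (SE 0.36, edgeR adjusted p = 0.018), a call lost on leaving out either of the GMP or of the EoP libraries. No other acetylhydrolase gene of the list was called for Eos over EoP.

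**Figure D4:**
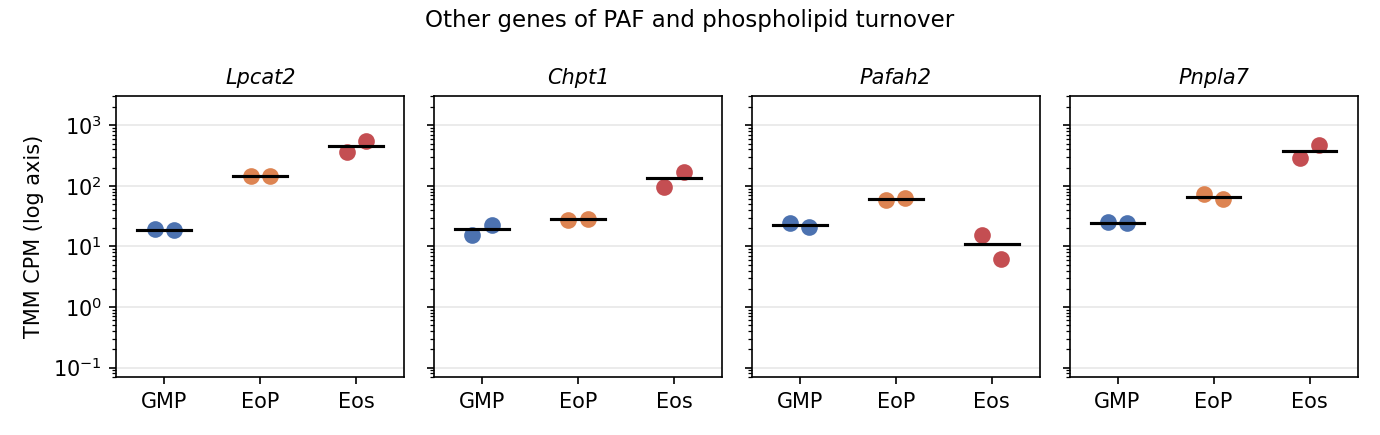
TMM-scaled CPM, on a log axis, of Lpcat2, Chpt1, Pafah2 and Pnpla7 in each library, with lines at the mean of 2 libraries. Lpcat2 rises at both steps to 367 and 559 CPM in Eos, and Pafah2 falls to 15.7 and 6.31 CPM in Eos, against 58.7 and 62.1 CPM in EoP.

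Genes that use arachidonate also moved, with 7 of 15 higher and 2 lower in Eos than in EoP. Of all tested genes 19.1% were called higher and 17.7% lower. Fewer genes of the list were called higher without EoP replicate 2. Mboat7, which puts arachidonate back into phosphatidylinositol, had 274 and 362 CPM in Eos against 72.8 and 67.8 CPM in EoP (log2 fold change 2.18, SE 0.23, edgeR adjusted p = 0.000161). Alox5ap, for the protein that presents arachidonate to 5-lipoxygenase, had 1295 and 2121 CPM in Eos against 524 and 425 CPM in EoP (1.85, SE 0.30, edgeR adjusted p = 0.00145). Ptges, for a prostaglandin E synthase, fell to 0.703 and 0.117 CPM in Eos, against 6.01 and 8.83 CPM in EoP (-4.09, SE 0.75, edgeR adjusted p = 0.00261). Alox15, for 12/15-lipoxygenase, had already risen in EoP, with 2441 and 2481 CPM there against 12.0 and 7.15 CPM in GMP (256-fold, edgeR adjusted p = 2.36e-05).

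Regulators of cytosolic phospholipase A2 rose in 8 of 12 cases and fell in 0 in Eos over EoP. All tested genes had shares of 19.1% and 17.7%. S100a10, whose product binds the enzyme, had 375 and 579 CPM in Eos against 69.5 and 60.1 CPM in EoP (log2 fold change 2.88, SE 0.28, edgeR adjusted p = 0.000101). Anxa1, for annexin A1, known as an inhibitor, had 1152 and 1257 CPM in Eos against 294 and 338 CPM in EoP (1.93, SE 0.27, edgeR adjusted p = 0.000716). The list holds genes of unlike effect on the enzyme, so their rise gives no direction for its activity. Camk2d, for a calcium and calmodulin-dependent kinase, rose at both steps, by 3.52 for EoP over GMP and 1.78 for Eos over EoP (edgeR adjusted p = 5.51e-05 and 0.000348).

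Of 14 genes through which the PAF receptor signals or is switched off, 11 were higher and 1 lower in Eos than in EoP (5 higher without EoP replicate 2). The lower one was Gna11, for a G protein subunit, and with any library but Eos replicate 1 left out no gene of the list was called lower. Arrb1, for a beta-arrestin that uncouples receptors, had 228 and 351 CPM in Eos against 42.6 and 63.3 CPM in EoP (log2 fold change 2.45, SE 0.29, edgeR adjusted p = 0.00027). Plcb3, for a phospholipase C that follows receptor activation, had 81.0 and 101 CPM in Eos against 20.0 and 15.8 CPM in EoP (2.35, SE 0.25, edgeR adjusted p = 0.000145). The median log2 fold change of the list was 1.06, against 0.02 over all tested genes, of which 19.1% were called higher and 17.7% lower.

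Among lipases and proteins that work with them, 9 of 15 genes were higher and 2 lower in Eos than in EoP. Shares over all tested genes were 19.1% and 17.7%. Most of the 9 are not relatives of Lipg: the triglyceride lipase family itself gave Lpl and Pla1a, a phosphatidylserine phospholipase gene at 1.51 and 1.99 CPM in Eos against 0.236 and 0 CPM in EoP. Lpl, for lipoprotein lipase, was low in EoP: it had 1.53 and 1.03 CPM there against 13.2 and 16.2 CPM in GMP (log2 fold change -3.53, SE 0.57, edgeR adjusted p = 0.00314). In Eos it had 20.2 and 7.25 CPM and was higher than in EoP (3.43, SE 0.57, edgeR adjusted p = 0.00162). Abca1, for a cholesterol exporter that forms high-density lipoprotein, had 32.2 and 49.2 CPM in Eos against 1.53 and 2.57 CPM in EoP (4.28, SE 0.44, edgeR adjusted p = 0.000135). Angptl4, for an inhibitor of lipoprotein lipase, fell like Lipg, to 4.82 and 2.57 CPM in Eos against 19.7 and 18.2 CPM in EoP (-2.34, SE 0.40, edgeR adjusted p = 0.00194).

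Among 9 tested receptors for secreted phospholipase A2 or lysophospholipids, 3 were higher and 2 lower in Eos than in EoP. The list is short, and over all tested genes the shares were 19.1% and 17.7%. The lower genes were Lpar1 and Lpar6, and neither call held with every library left out in turn. P2ry10 had 119 and 229 CPM in Eos against 17.2 and 14.2 CPM in EoP (log2 fold change 3.47, SE 0.46, edgeR adjusted p = 0.000545). Gpr132, a receptor linked to lysophosphatidylcholine, had 90.4 and 116 CPM in Eos against 11.6 and 13.1 CPM in EoP (3.06, SE 0.27, edgeR adjusted p = 5.39e-05).

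The H3K4me3 lists, 1 library per cell type, held 30645 peaks for GMP, 19816 for EoP and 33847 for Eos, so peaks cannot be tested between cell types. A peak missing from a list was not called there by the authors, and the depth of these libraries is unknown. Scores are the authors' own and are set only against other peaks of the same list. Pla2g4a had a promoter peak in all 3 lists, as had 56.6% of the 14324 tested genes. It lay at chr1:149960810-149961493 in GMP, chr1:149960761-149961305 in EoP and chr1:149960776-149961345 in Eos, and the 3 peaks overlapped pairwise by 496 to 536 bases. It was a strong peak in each list: its −log10 q of 37.2 in GMP, 30.8 in EoP and 27.9 in Eos was at or above that of 75.3%, 96.6% and 87.5% of the genes with a promoter peak in the same list.

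Ptafr had a promoter peak in the Eos list alone, at chr4:132564189-132565081, 893 bases long and starting 122 bases after the transcript start. Its −log10 q of 10.7 was at or above that of 30.7% of genes with a promoter peak there. Only 1.13% of tested genes had a promoter peak in the Eos list and neither of the others, and 2.74% of the genes called higher in Eos than in EoP. Pla2g7 had promoter peaks in GMP (chr17:43568397-43568755) and in Eos (chr17:43568703-43569050) and none in EoP, a combination found in 2.53% of tested genes. The GMP peak ranked 20371 by q in its list, and it drops out when each list is held to its 19816 strongest peaks, which leaves a promoter peak of Pla2g7 in Eos alone. The GMP peak covered the start and the Eos peak lay 252 to 599 bases after it, and they shared 53 bases. Both were weak, with −log10 q of 4.87 and 4.18. The RNA libraries of Pla2g7 overlapped between EoP and GMP, and of these a promoter peak was listed in GMP.

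Pla2g3 had no promoter peak in any list, like 32.8% of tested genes and 25.0% of those called higher in Eos than in EoP. Its single listed peak, in an exon 4739 bases after the start in Eos, had a −log10 q of 2.70. Lipg had 1 promoter peak in GMP, 2 in EoP and 1 in Eos, all of them weak. In EoP, where its RNA was highest, the stronger had a −log10 q of 3.67, at or above that of 4.99% of genes with a promoter peak. In Eos the value was 4.44, at or above that of 11.3%. The GMP peak of Lipg shared 4 bases with 1 EoP peak and 0 with the other. It shared 0 bases with the Eos peak, which lay within an EoP peak. Of the 250 printed bases before the start, the peaks covered 54 bases for Pla2g7 in GMP and 0 in Eos, and 0 for Ptafr in Eos. For Pla2g4a they covered 203 bases in GMP, 15 in EoP and 55 in Eos.

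**Figure D5:**
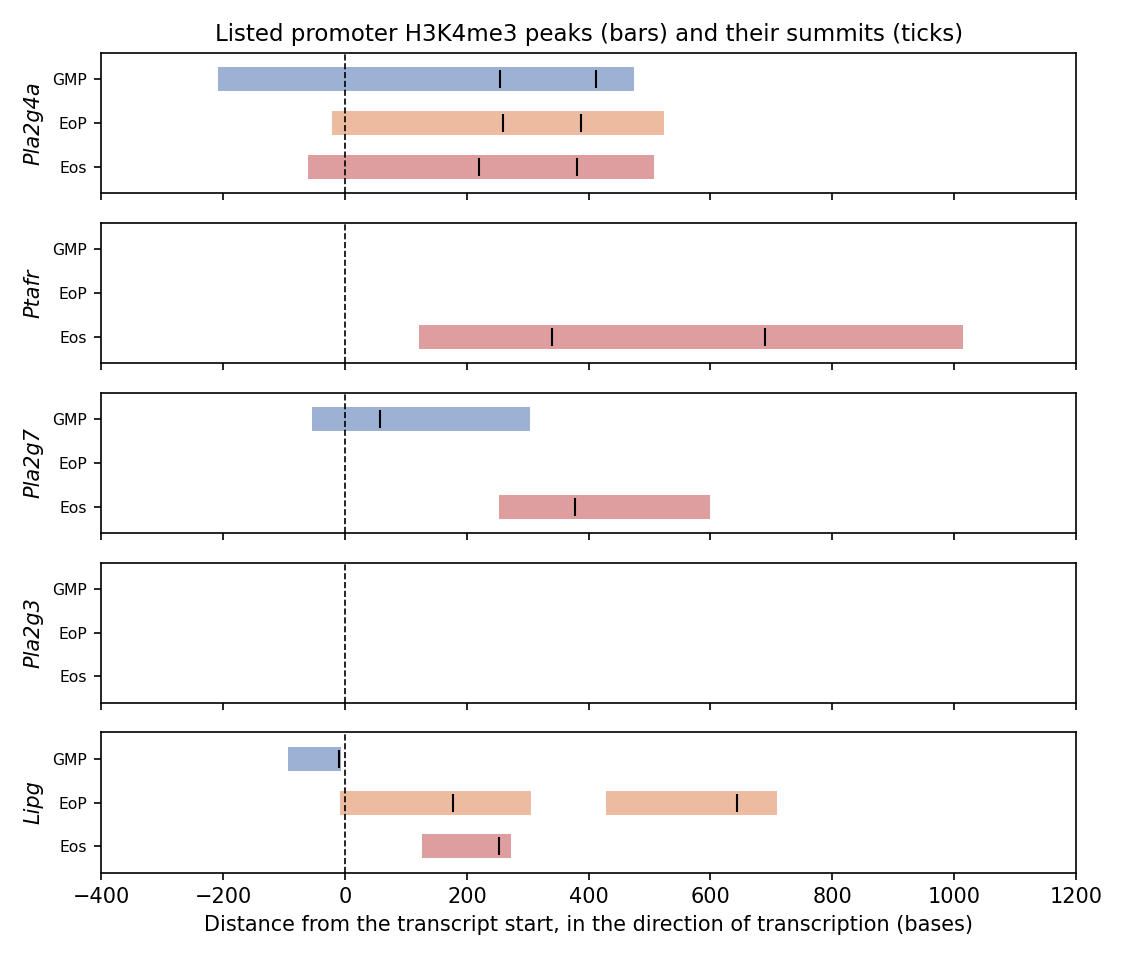
Promoter H3K4me3 peaks of the 5 genes in the list of each cell type, placed by distance from the transcript start in bases along the direction of transcription. Bars are peaks, ticks are summits and the dashed line is the start. Pla2g4a has a peak in all 3 lists, Ptafr in Eos alone, Pla2g7 in GMP and Eos, Pla2g3 in none and Lipg in all 3. The Lipg peaks of GMP and Eos do not overlap.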

How the data were processed

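RNA was measured in 6 libraries and H3K4me3 in 3. For each RefSeq transcript the authors deposited an estimated count (in whole numbers) together with its RPKM. The submitters' processing notes name STAR 2.4.0c, Bowtie 1.0.0 and mm10; quantifier and peak caller: not given in the sources used here. Per the file headers, the peak lists give pileup signal, −log10 p and q, fold enrichment and length, with no replicates. Coordinates are 1-based.

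Counts were summed per gene symbol and tested in R 4.3.3 with the edgeR 4.0.16 quasi-likelihood test (default filter, TMM, 1 fit of 6 libraries, 3 residual degrees of freedom, Benjamini-Hochberg threshold 0.05). RPKM was summed likewise. The script was tested on simulated data. Intervals were not computed; floors of 3 counts cover counting error only. Members and gene lists were chosen with earlier results of these data known. Named genes were up to 4 called genes per list and comparison by size, at 5 CPM or more with no overlap of libraries, and the 3 nearest in pattern; Pla2g2a, Pla2g2d, Pla2g12a, Pnpla6, Far2, Gna11, Lpar1, Pla1a and the marker genes fall outside it or were chosen after their values were seen. Alternatives were other scalings, filters, DESeq2 1.42.0, limma 3.58.1 on log2(RPKM + 0.5), the replicate block and each library left out.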

Additional observations from a re-analysis of the deposited data

How the results depend on the processing

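Of 224 alternative values of the log2 fold changes of the 5 genes, 206 differed from the reported value by less than the spread between replicates, and 18 by more; the sign changed for EoP over GMP of Pla2g7 (-0.28 with library size alone, -0.13 without GMP replicate 2) and of Ptafr (-0.22 and -0.11) and for no other; the 30 alternative values of the order per length were the same. The cause of the shifts was not tested. The order by CPM per length took its lengths from the counts and RPKM, so it could hardly differ from the RPKM order. Over all genes for EoP over GMP (1359 higher, 2453 lower), library size alone gave 602 higher, at least 50 counts in 2 libraries gave 899 higher and 640 lower, limma on log2(RPKM + 0.5) gave 2363 higher and 352 lower, and the replicate block gave 1508 lower. The share of calls that were higher was 35.7%, and was 25.2% with upper quartile factors, 14.3% with library size alone, 58.4% with at least 50 counts and 87.0% with limma. For Eos over EoP (2733 higher, 2540 lower, 51.8% of calls higher), limma gave 1440 higher and 4311 lower (25.0%). For Eos over GMP (3253 higher, 4557 lower, 41.7%), library size alone gave 2019 higher (23.0%) and at least 50 counts 2972 lower (50.2%). Scaling by library size alone shifted the median gene by -0.47 for EoP over GMP and -0.58 for Eos over GMP. For genes of the 8 lists, EoP over GMP had 14 higher and 18 lower with library size alone, 38 higher and 3 lower with limma, and 5 lower with at least 50 counts. Eos over EoP had 18 lower with limma. Eos over GMP had 21 lower with upper quartile factors, 25 with library size alone, 8 with at least 50 counts and 7 with only the 2 groups compared.

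For single genes, limma on log2(RPKM + 0.5), a scale that compresses low genes, gave Pla2g7 6.29 for Eos over EoP and 6.47 for Eos over GMP. It gave Pla2g3 1.39 for EoP over GMP, 3.68 for Eos over EoP and 5.07 for Eos over GMP. It gave Pla2g4a 1.54 for EoP over GMP and 0.91 for Eos over EoP, Lipg 4.48 for EoP over GMP and 0.40 for Eos over GMP, and Ptafr 3.69 for Eos over EoP. Pla2g4a was 1.16 with upper quartile factors and 0.87 with library size alone for EoP over GMP, and 2.20 with library size alone for Eos over GMP. Among peaks, counting any peak listed for a gene gave 2 for Pla2g7, 1 for Pla2g3, 13 for Pla2g4a and 2 for Ptafr in Eos and 2 for Pla2g4a in GMP. Keeping only the 19816 strongest peaks of each list left 0 for Pla2g7 and 0 for Lipg in GMP. Of the 3 nearest genes, 0 were shared under Pearson correlation for each of the 5 genes, and under log2(RPKM + 0.5) 0 for Pla2g3, 0 for Lipg and 1 for Ptafr.

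With each library left out in turn, genes higher ranged from 423 to 2346 for EoP over GMP, 1658 to 3114 for Eos over EoP and 2328 to 3621 for Eos over GMP, and genes lower from 312 to 3552, 1361 to 3283 and 1656 to 4515. List genes higher ranged from 10 to 36, 31 to 48 and 43 to 48, and lower from 1 to 14, 5 to 10 and 4 to 17. For Pla2g7 the log2 fold changes ranged from -0.13 to 1.00, 7.76 to 8.87 and 7.96 to 9.42. For Ptafr they ranged from -0.11 to 1.13, 4.50 to 4.96 and 4.64 to 5.86, and for Lipg from 6.56 to 8.06, -5.93 to -4.47 and 1.42 to 2.84. For Pla2g4a they ranged from 1.29 to 1.59, 1.17 to 1.70 and 2.53 to 3.06. For Pla2g3 they ranged from 2.95 to 8.80, 4.45 to 5.07 and 7.74 to 13.60, where the highest against GMP came without GMP replicate 2, which leaves 0 counts in GMP and makes the fitted value no bound. Same-numbered libraries did not deviate together (r = -0.10, -0.08 and 0.02 over genes). With 2 libraries per group this cannot exclude a shared origin. The replicate block moved no value of the 5 genes beyond the spread between replicates. Within single lists the replicate block moved 5 counts by over 1.5 times. Phospholipase A2 genes lower went to 2 with the replicate block, against 4 without it, for EoP over GMP, and to 0 against 2 for Eos over GMP. Receptor coupling genes higher went to 3 against 5 for EoP over GMP, and genes lower to 0 against 1 for Eos over EoP. Lysophospholipid receptors lower went to 1 against 2 for Eos over EoP. The 2 GMP libraries, the shallowest, limit what can be said of genes at a few counts there.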

Other observations

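Beyond the promoter, the Eos list assigned 12 intergenic peaks to Pla2g4a, the nearest 346 kb and the farthest 2889 kb from its start, with a pileup of 2 to 4. The GMP list assigned it 1 intron peak and the EoP list no further peak. The Eos list also held a peak 8.97 kb before the start of Ptafr and an intron peak of Pla2g7 12897 bases after its start, each with a pileup of 3. The lowest pileup in any peak was 3 in the GMP list, 4 in the EoP list and 2 in the Eos list.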
